A study of Homo sapiens with 6 samples.

Results

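The genes described here are 10 feedback regulators and ETS-type targets of the mitogen-activated protein kinase (MAPK) pathway: DUSP4, DUSP5, DUSP6, SPRY2, SPRY4, SPRED1, SPRED2, ETV4, ETV5 and PHLDA1. They were chosen by name from the 15284 genes that both deposited count tables list, and all 10 were listed. All 10 also passed a filter on low counts that left 12678 genes for testing. RNA was sequenced from HCT116 cells, a human colorectal carcinoma line, in 3 groups of 2 libraries. KO1 and KO2 cells each received 1 of 2 guide RNAs against MUC3A, a membrane-bound intestinal mucin, on the lentiCRISPR v2 vector, which also carries Cas9. Virus was used at a multiplicity of infection of 10, followed by puromycin at 2 µg/mL for 72 h. The control group, WT, is labelled both wild type and negative control, and a scrambled virus is described, so whether WT cells carried a virus was not settled here. The labels do not say whether KO1 and KO2 are single clones or pools, nor whether a group's 2 libraries were grown separately. Every p-value below is therefore set against a spread among libraries that could be technical.

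In each group 1 library has a name starting with HCT and the other a name starting with HCT116, a prefix that the labels leave unexplained. Libraries with the same prefix form a set, HCT or HCT116, and groups were compared within sets. Totals over the shared genes ranged from 13638724 to 17829599 counts. MUC3A itself stood at 52.7, 52.9 and 30.04 CPM (counts scaled to library size) in the HCT libraries of WT, KO1 and KO2, and at 25.1, 28.6 and 24.6 CPM in the HCT116 libraries. It passed the test with neither guide (edgeR adjusted p = 0.962 in KO1 and 0.237 in KO2). Leaving out 1 library gave it log2 fold changes of −0.77 to −0.08 in KO2. Small insertions or deletions need not alter transcript amount, so this does not check the knockout labels. The epithelial markers EPCAM, KRT8, KRT18, KRT19 and CDH1 were between 61.0 and 8139 CPM in every library. Of the other cell types' markers, the leukocyte genes reached 0.138 (CD14), 0.0691 (PTPRC), 0.472 (CD79A) and 2.01 CPM (LYZ). The fibroblast genes reached 0.0651 (DCN), 0.419 (COL3A1) and 1.11 CPM (PDGFRB), while COL1A1 stood at 34.3 to 66.4 CPM.

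Growth factor receptors switch on Ras, which activates the kinases RAF, MEK and ERK in turn. ERK activity induces transcription of genes whose products restrain the same pathway, so their transcripts are widely read as a record of ERK output. Dual-specificity phosphatases (DUSP) remove phosphate from MAP kinases, Sprouty proteins (SPRY) act between receptors and Ras, and Spred proteins recruit neurofibromin to Ras. ETV4 and ETV5 are ETS transcription factors of the PEA3 subfamily that rise with ERK activity, partly through release of the repressor Capicua. PHLDA1 is a pleckstrin-homology-like protein whose transcript is part of common ERK output signatures.

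The 10 genes did not move as a block with either guide. In KO2, ETV4 fell 1.58-fold against WT and was the 1 of 10 genes past an adjusted p of 0.05, where 4.61% of all tested genes passed (2.15% higher and 2.47% lower). In KO1, 0 of 10 passed, where 1.03% of all tested genes did (0.678% higher and 0.347% lower), and the nearest were DUSP4 (1.77-fold above WT) and PHLDA1 (1.54-fold below). The guides differed from each other in 3 of 10, where 9.62% of all tested genes differed (4.24% higher and 5.39% lower): DUSP4 and ETV4 were lower and PHLDA1 higher in KO2 than in KO1. More genes differed between the sets than between the groups. With group and set in 1 model, 9 of 10 genes differed between sets, against 63.9% of all tested genes, with 8 lower in the HCT116 libraries and ETV4 higher.

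These values come from edgeR's quasi-likelihood test with group and set as terms, on all 6 libraries and all 12678 genes, with Benjamini-Hochberg adjustment. Without the set term, 0 of 10 genes and 0 genes of all 12678 passed in KO1 against WT, KO2 against WT or KO2 against KO1. At an unadjusted p of 0.05 that fit gave 0, 0 and 1 of the 10 genes, and 173, 309 and 513 of all genes. The fit with the set term gave 2, 1 and 3 of the 10 at that level, and 1122, 2460 and 3172 of all genes. Fits with 1 library left out, used below, leave 1 group with 1 library. The spread of that group then comes from the other groups, so passing there is not comparable with the fit of all 6 libraries.

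**Figure D1:**
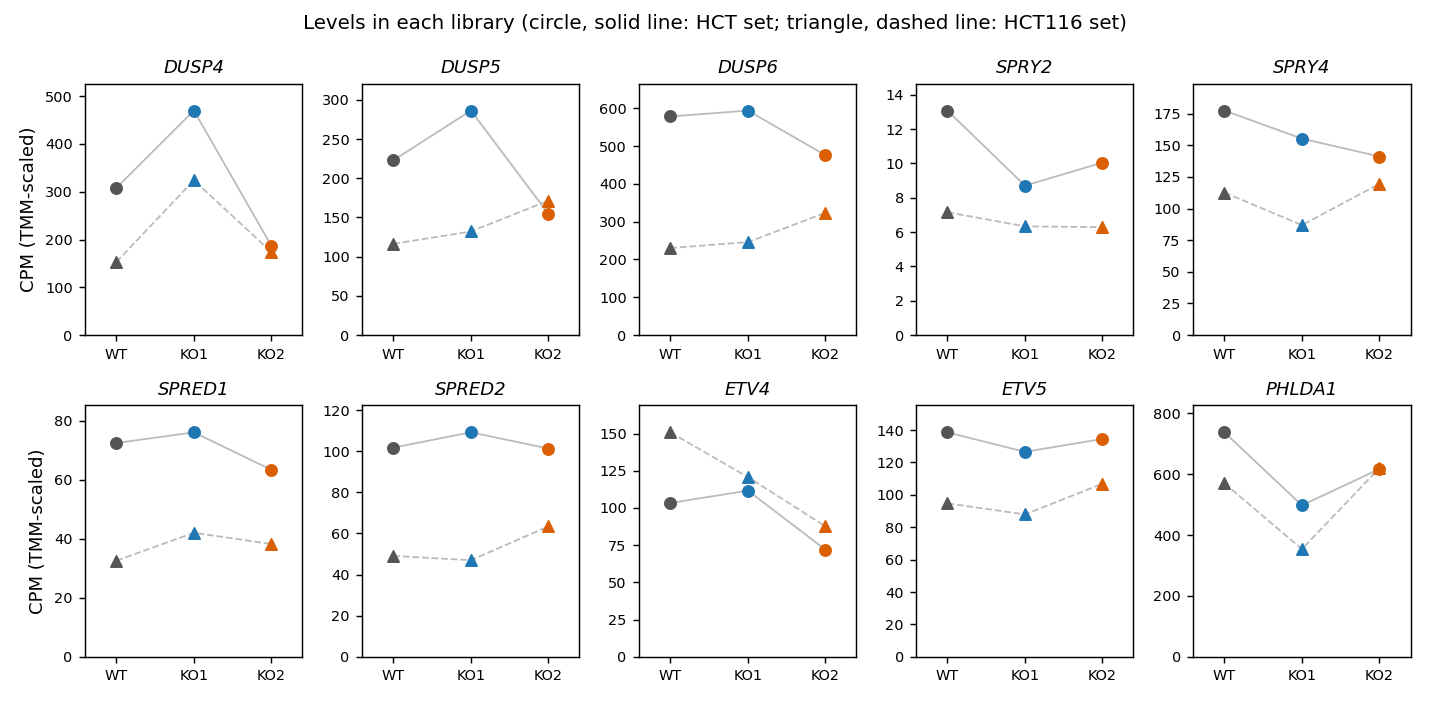
Level of each gene in CPM (vertical axes, linear, starting at 0) in the 3 groups (horizontal axis). Circles and solid lines are the HCT libraries, triangles and dashed lines the HCT116 libraries, with 1 library per point. DUSP4 is highest in KO1, ETV4 lowest in KO2 and PHLDA1 lowest in KO1 in both sets, and the 2 sets lie closer together in KO2 than in WT for all 10 genes.

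Levels of different genes were compared per length, as CPM per kilobase of annotated exon (RPKM, with exon lengths from GENCODE 29). In WT the highest were DUSP6 at 87.3 ± 53.1 RPKM (SD, n = 2), PHLDA1 at 81.0 ± 14.7 and DUSP5 at 64.9 ± 28.8. ETV4 (35.2 ± 9.30), DUSP4 (31.8 ± 15.1), SPRY4 (22.1 ± 6.98), ETV5 (20.1 ± 5.34) and SPRED2 (14.6 ± 7.22) followed in RPKM. SPRED1 at 6.36 ± 3.41 and SPRY2 at 3.33 ± 1.38 were the lowest. Neighbours in this order overlapped in range except DUSP5 and ETV4, and SPRED2 and SPRED1. The sets gave nearly the same order in WT, with DUSP6 above PHLDA1 in HCT and below it in HCT116, and DUSP4 above ETV4 in HCT and below it in HCT116.

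Among the phosphatases, DUSP4, an inducible nuclear phosphatase that acts on ERK and JNK, separated the guides most. It stood at 308 CPM in the HCT library and 153 CPM in the HCT116 library of WT. In KO1 it stood at 469.8 and 324 CPM, and in KO2 at 187 and 174 CPM. Both KO1 libraries lay above both WT and both KO2 libraries, while KO2 lay inside the WT range. The fitted log2 fold change was 0.83 ± 0.18 (SE, n = 2 libraries per group) in KO1 against WT, with an edgeR adjusted p of 0.0590. It was −1.10 ± 0.18 in KO2 against KO1, a 2.14-fold fall with an edgeR adjusted p of 0.00293. That fall kept its direction without any single library, at log2 fold changes of −1.43 to −0.79. The KO1 difference from WT passed with DESeq2 (adjusted p = 0.00199), limma-voom (0.0395), edgeR with another scaling of libraries (0.0389) and edgeR without the filter (0.00164). It did not pass with a filter of 1 CPM in all libraries (edgeR adjusted p = 0.0662). Leaving out 1 library moved it from 0.51 without the HCT116 library of WT to 1.19 without the HCT library of WT. It did not pass without the HCT (0.84) or HCT116 (0.81) library of KO1. Without the HCT or HCT116 library of KO2 it was 0.84 and 0.82. Against WT, KO2 was 1.65-fold lower in the HCT set and 1.14-fold higher in the HCT116 set, with a fitted log2 fold change of −0.27 ± 0.18. That value turned to 0.08 without the HCT library of WT and to 0.05 without the HCT library of KO2. Without the HCT116 library of KO2, which left KO2 with 1 library, it was −0.61.

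DUSP5, a nuclear phosphatase selective for ERK, stood at 223, 286 and 155 CPM in the HCT libraries of WT, KO1 and KO2. In the HCT116 libraries it stood at 116, 132 and 171 CPM. The groups overlapped in all 3 comparisons, and KO2 was the 1 group in which the HCT116 library was the higher one. Its log2 fold change was 0.28 ± 0.23 in KO1 (SE, edgeR adjusted p = 0.839) and 0.05 ± 0.24 in KO2 (edgeR adjusted p = 0.929). The near-zero KO2 value is the mean of opposite ratios: 1.44-fold lower in the HCT set and 1.47-fold higher in the HCT116 set. Without the HCT116 library of KO2 the log2 fold change in KO2 was −0.57, and without the HCT library of KO2 it was 0.60.

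DUSP6, the cytoplasmic ERK phosphatase and the most abundant of the 10 per length in WT, showed the same split. It stood at 578, 594 and 476 CPM in the HCT libraries of WT, KO1 and KO2, and at 230.3, 246 and 324 CPM in the HCT116 libraries. All 3 HCT values were above all 3 HCT116 values, so the groups overlapped. The log2 fold change was 0.06 ± 0.17 in KO1 (SE, edgeR adjusted p = 0.975) and 0.12 ± 0.18 in KO2 (edgeR adjusted p = 0.774). Within sets, KO2 was 1.22-fold below WT in HCT and 1.41-fold above it in HCT116. Without the HCT library of KO2 the log2 fold change in KO2 was 0.48, and without the HCT116 library of KO2 it was −0.27. The annotation places exons of a gene on the opposite strand over DUSP6, and of 2 such genes over PHLDA1. The sources used here do not give whether counting used strand, and without it reads of such pairs cannot be told apart.

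The promoter of DUSP6 is shown because it is the window among these genes that holds an octamer read by Capicua, the ERK-controlled repressor. The windows below are the 250 bases upstream of the RefSeq start (GRCh38.p14), read 5′ to 3′ on the gene's strand. Capitals mark a match to any of the 4 Capicua octamers TGAATGAA, TGAATGGA, TCAATGAA and TCAATGGA on either strand. PHLDA1 is shown beside it as the gene of the 10 that differed between the guides and has an entry in the table of promoters.
DUSP6, chr12:89352502-89352751, minus strand: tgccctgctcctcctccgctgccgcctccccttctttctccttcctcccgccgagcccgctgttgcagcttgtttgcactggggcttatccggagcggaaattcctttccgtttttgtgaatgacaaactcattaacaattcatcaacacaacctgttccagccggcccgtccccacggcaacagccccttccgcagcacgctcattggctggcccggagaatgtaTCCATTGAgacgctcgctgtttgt
PHLDA1, chr12:76031777-76032026, minus strand: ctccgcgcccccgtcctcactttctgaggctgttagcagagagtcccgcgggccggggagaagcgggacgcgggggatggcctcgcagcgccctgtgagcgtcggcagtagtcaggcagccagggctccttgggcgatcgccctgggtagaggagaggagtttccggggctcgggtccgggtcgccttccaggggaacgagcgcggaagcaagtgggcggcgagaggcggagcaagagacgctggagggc

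In DUSP6 the reverse complement of TCAATGGA begins 24 bases before the start. Of 35116 promoter windows of this length in RefSeq, 3.18% hold a Capicua octamer. The ETS core CCGGAAG is in 8.52% of windows, the AP-1 site TGACTCA in 4.2% and the cyclic AMP element TGACGTCA in 1.65%, searched on both strands, and no word overlapped another in the windows of these genes. Of the 10 genes, 6 matched the table, with 9 windows in all: DUSP6, PHLDA1, SPRED1, SPRED2, SPRY2 and SPRY4. The Capicua octamer was found in 1 of the 9 windows, and the other 3 words in 0. DUSP4, DUSP5, ETV4 and ETV5 had no entry.

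SPRY2, a Sprouty inhibitor of receptor signalling, had the fewest reads, 82 to 201 per library. It stood at 13.1, 8.71 and 10.05 CPM in the HCT libraries of WT, KO1 and KO2, and at 7.16, 6.34 and 6.29 CPM in the HCT116 libraries. WT was the highest group in each set, yet the groups overlapped between sets. The log2 fold change was −0.40 ± 0.23 in KO1 (SE, edgeR adjusted p = 0.710) and −0.29 ± 0.22 in KO2 (edgeR adjusted p = 0.525). In the HCT116 set the 95% exact counting intervals of both ratios to WT included equality (−0.62 to 0.27 in KO1 and −0.62 to 0.25 in KO2, log2), so at this depth no difference was detectable there. Intervals cover counting error only.

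SPRY4, its paralog, was the more abundant per length, at 22.1 against 3.33 RPKM in WT. It stood at 177, 155 and 141 CPM in the HCT libraries of WT, KO1 and KO2 and at 113, 86.9 and 119.5 CPM in the HCT116 libraries. KO1 was below WT in both sets, by 1.14-fold and 1.30-fold, and KO2 in the HCT set only. The fitted log2 fold change was −0.28 ± 0.15 in KO1 (SE, edgeR adjusted p = 0.680) and −0.12 ± 0.15 in KO2 (edgeR adjusted p = 0.727). Leaving out 1 library gave log2 fold changes of −0.38 to 0.13 for SPRY4 in KO2.

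Neither Spred gene passed with either guide. SPRED1 stood at 72.4, 76.1 and 63.3 CPM in the HCT libraries of WT, KO1 and KO2 and at 32.6, 42.0 and 38.2 CPM in the HCT116 libraries. Its log2 fold change was 0.21 ± 0.14 in KO1 and 0.01 ± 0.14 in KO2 (SE, edgeR adjusted p = 0.796 and 0.986). SPRED2 stood at 101.7, 109 and 101.3 CPM in HCT and at 49.1, 47.0 and 63.4 CPM in HCT116. Its log2 fold change was 0.03 ± 0.15 in KO1 and 0.18 ± 0.15 in KO2 (SE, edgeR adjusted p = 0.984 and 0.548). For both genes every HCT library was above every HCT116 library. Leaving out 1 library gave log2 fold changes of −0.05 to 0.41 for SPRED2 in KO2.

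ETV4 was the 1 gene of the 10 that passed against WT, and it was lower in KO2. It stood at 103 CPM in the HCT and 151 CPM in the HCT116 library of WT, at 112 and 121 CPM in KO1, and at 72.0 and 87.7 CPM in KO2. Both KO2 libraries lay below all 4 others, and KO1 lay inside the WT range. In KO2 the log2 fold change was −0.66 ± 0.13 (SE, edgeR adjusted p = 0.0192), with a fall of 1.44-fold in the HCT set and 1.72-fold in the HCT116 set. Against KO1 it was −0.55 ± 0.13 (edgeR adjusted p = 0.0251), with ratios of 1.55-fold and 1.38-fold lower. KO1 against WT gave −0.11 ± 0.13 (edgeR adjusted p = 0.905). The call against WT ended without the HCT116 library of WT (edgeR adjusted p = 0.260), and that against KO1 without the HCT library of KO1 (0.483) or its HCT116 library (0.0506).

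Its subfamily member ETV5 did not pass in any of the 3 comparisons. It stood at 139, 127 and 135 CPM in the HCT libraries of WT, KO1 and KO2 and at 94.8, 88.0 and 107 CPM in the HCT116 libraries. In KO2 its log2 fold change was 0.06 ± 0.12 (SE, edgeR adjusted p = 0.823), and KO1 gave −0.12 ± 0.12 (edgeR adjusted p = 0.877). ETV1, the other PEA3 factor, stood at 49.98 and 16.9 CPM in WT and at 67.7 and 48.4 CPM in KO2, a 1.94-fold rise (log2 fold change 0.96 ± 0.22, edgeR adjusted p = 0.0330). In KO2, therefore, 1 PEA3 gene fell, 1 rose and 1 did not pass. The ETV1 call ended without the HCT116 library of WT (edgeR adjusted p = 0.218).

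PHLDA1 was lowest in KO1. It stood at 737 and 570.05 CPM in the HCT and HCT116 libraries of WT, at 498 and 354 CPM in KO1, and at 617 and 621 CPM in KO2. Both KO1 libraries lay below all 4 others. The log2 fold change against WT was −0.62 ± 0.14 in KO1 (SE, edgeR adjusted p = 0.0807) and −0.06 ± 0.14 in KO2 (edgeR adjusted p = 0.867). KO2 was 1.48-fold higher than KO1 (0.56 ± 0.15, edgeR adjusted p = 0.0323). The KO1 value passed with DESeq2 (adjusted p = 0.00497) and with edgeR without the filter (0.0109). It did not pass with another scaling (edgeR adjusted p = 0.0642), the filter of 1 CPM (0.0866) or limma-voom (0.0541), nor without any WT or KO1 library. Leaving out 1 library gave log2 fold changes of −0.79 to −0.49 in KO1. The difference between the guides lost its call without the HCT library of KO1 (edgeR adjusted p = 0.126), the HCT116 library of KO1 (0.485) or the HCT116 library of KO2 (0.0646).

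**Figure D2:**
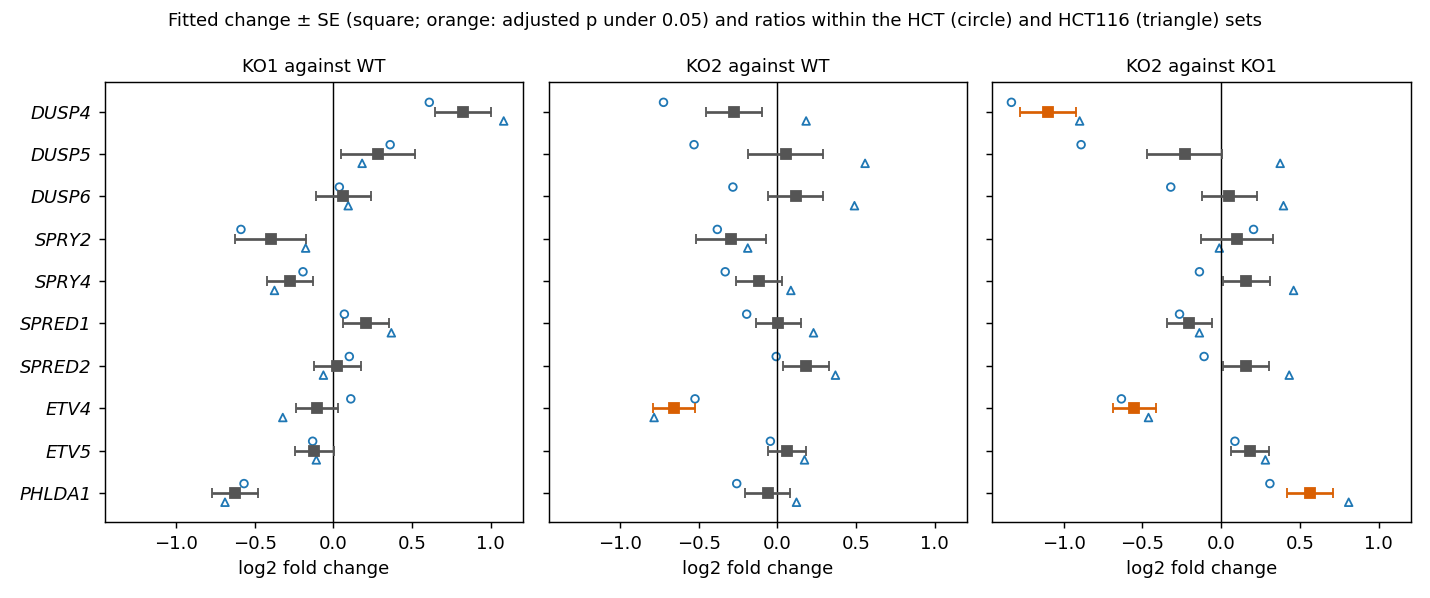
Log2 fold change (horizontal axis) of each gene in the 3 comparisons. Squares with bars are fitted values ± SE, orange where the adjusted p is under 0.05, and open circles and triangles are the ratios within the HCT and HCT116 sets. DUSP4 and ETV4 at −1.10 and −0.55 and PHLDA1 at 0.56 are orange in KO2 against KO1, and in KO2 against WT the circles and triangles of DUSP5 and DUSP6 lie on opposite sides of 0.

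Groups that did not overlap in CPM were found for 2 of 10 genes in KO1 against WT (DUSP4 and PHLDA1), where 12.6% of all tested genes did not overlap. The count was 1 of 10 (ETV4) in KO2 against WT, where it was 20.4% of all tested genes, and 3 of 10 in KO2 against KO1, where it was 24.8%. The median log2 fold change of the 10 genes was −0.04 in KO1 and −0.03 in KO2 against WT, and 0.00 over all tested genes in each. Against KO1 the median in KO2 was 0.08. In the authors' deposited table all 10 genes have an adjusted p of 0.999994 in KO1 and 0.999996 in KO2, with log2 fold changes of 0.77 for DUSP4 and −0.63 for PHLDA1 in KO1 and −0.72 for ETV4 in KO2. The mitochondrial share of counts was 8.90% and 6.95% in the KO2 libraries, against 4.20% to 5.94% in WT and KO1, and KO2 had the highest totals. Their part in these differences was not tested.

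More of the 10 genes passed between the sets than between any 2 groups. In size, though, DUSP4, ETV4 and PHLDA1 differed more between groups. Their largest folds there were 2.14 (KO2 against KO1), 1.58 (KO2 against WT) and 1.54 (KO1 against WT). The HCT116 libraries were lower by 2.07-fold for DUSP6, 1.97-fold for SPRED2, 1.88-fold for SPRED1, 1.59-fold for SPRY2 and 1.55-fold for DUSP5. SPRY4 (1.49-fold), DUSP4 (1.46-fold) and ETV5 (1.38-fold) were lower too, with edgeR adjusted p of 4.12e-05 for SPRED2 to 0.0134 for DUSP5. ETV4 was 1.24-fold higher in HCT116 (edgeR adjusted p = 0.0249), and PHLDA1, at 1.22-fold lower, did not pass (0.0530). So 8 of 10 were lower and 1 higher, where 32.1% of all tested genes were lower and 31.8% higher. The median log2 difference of the 10 was −0.61, against −0.02 over all tested genes. Leaving out either WT library ended the calls for DUSP4, SPRY2 and ETV4, and leaving out either KO1 library that for DUSP5 (edgeR adjusted p = 0.0685 to 0.255). DUSP5 did not pass with DESeq2 either (adjusted p = 0.141). PHLDA1 passed without the filter (edgeR adjusted p = 0.0397), with the filter of 1 CPM (0.0485) and with limma-voom (0.0380). Leaving out 1 library gave log2 differences of −0.43 to −0.16 for PHLDA1. In each group the HCT library had the higher total count, and the part of depth in the set difference was not tested.

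**Figure D3:**
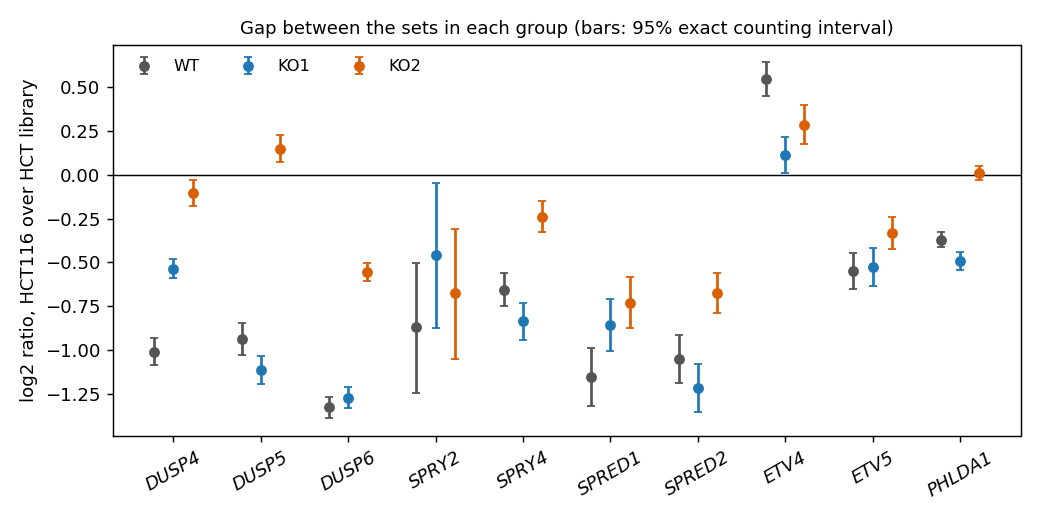
Log2 ratio of the HCT116 over the HCT library (vertical axis) for each gene in WT, KO1 and KO2, with 1 library of each set per group. Bars are 95% exact intervals that cover counting error only. The KO2 points of DUSP4 at −0.10, DUSP5 at 0.15 and PHLDA1 at 0.01 lie near 0, whereas in WT they are −1.01, −0.94 and −0.37.

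The gap between the sets was smaller in KO2 than in WT for 10 of 10 genes, and that was so for 70.2% of all tested genes. For the 10 genes the median absolute log2 gap went from 0.90 in WT to 0.31 in KO2, with 0.69 in KO1. Over all tested genes it was 0.67 in WT, 0.49 in KO2 and 0.60 in KO1. DUSP6 went from a 2.51-fold gap in WT to 1.47-fold in KO2, DUSP4 from 2.01-fold to 1.07-fold, and DUSP5 from 1.91-fold lower to 1.11-fold higher in HCT116. In KO1 the gap was smaller than in WT for 6 of 10 genes, where it was smaller for 61.8% of all tested genes, and in KO2 it was smaller than in KO1 for 8 of 10, against 62.3%. For 5 genes, DUSP4, DUSP5, DUSP6, SPRED1 and PHLDA1, KO2 was below WT in the HCT set and above it in the HCT116 set, each beyond counting error, where 5.2% of all tested genes did this. ETV4 was the 1 gene of the 10 with both KO2 ratios to WT beyond counting error in 1 direction, which held for 23.8% of all tested genes, and opposite ratios in either order held for 10.7%. In KO1 against WT, 4 of 10 genes had both ratios beyond counting error in 1 direction, against 16.7% of all tested genes, and ETV4 had opposite ratios, against 3.4%. Between the guides, DUSP5, DUSP6, SPRY4 and SPRED2 had opposite ratios in the sets, which held for 7.45% of all tested genes. Counting intervals narrow as a gene has more reads, and the shares over all tested genes were not matched for reads. The counts of ratios beyond counting error are therefore not like for like with those shares. Each set has 1 library per group, so whether the guides act differently in the sets was not tested.

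Other genes of the pathway were read from lists chosen by function. In the cascade from adaptors and Ras to ERK, 0 of 18 tested genes passed in KO1, where 1.03% of all tested genes did. In KO2, where 4.61% did, the adaptor gene SHC1 rose 1.43-fold (log2 fold change 0.51 ± 0.12, SE, edgeR adjusted p = 0.0350) and 0 fell. Its call ended when any WT or KO1 library was left out (edgeR adjusted p = 0.0902 to 0.292). Against KO1, SHC1 was 1.85-fold higher in KO2 and the MEK gene MAP2K1 1.43-fold lower. Without the HCT library of KO1 neither passed (edgeR adjusted p = 0.0526 for SHC1 and 0.365 for MAP2K1), nor did MAP2K1 without the HCT116 library of KO1 (0.181). Over the 18 genes the median log2 change was 0.09 in KO1 and −0.04 in KO2.

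Of 5 other MAP kinase phosphatases tested, among them DUSP1, and of 11 other brakes on receptors and Ras, among them NF1, ERRFI1 and IL17RD, 0 passed in each of the 3 comparisons. Over all tested genes the share that passed was 1.03% for KO1, 4.61% for KO2 and 9.62% between the guides. At such shares, lists of 5 and 11 genes are too short for a count of 0 to stand apart. Between the sets, 1 of these 11 brakes was higher and 9 were lower in HCT116, with a median log2 difference of −1.25, where 31.8% of all tested genes were higher and 32.1% lower with a median of −0.02. IL17RD, a receptor-like inhibitor of fibroblast growth factor signalling, was 2.94-fold lower there. Among the phosphatases DUSP2 and DUSP9 were higher in HCT116, 2.77-fold and 1.74-fold, and DUSP10 was 2.73-fold lower. PHLDA3, a paralog of PHLDA1, was 2.93-fold higher in HCT116 and passed with neither guide.

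Of 17 other ETS factors, 2 rose and 0 fell in KO2 against WT, where 2.15% of all tested genes rose and 2.47% fell, and 0 passed in KO1, where 1.03% did. They were ETV1 and ETS2, itself a target of ERK phosphorylation, which rose 1.53-fold. ETS2 stood at 78.9 and 79.7 CPM in WT and at 123 and 119.95 CPM in KO2, a log2 fold change of 0.62 ± 0.12 (SE, edgeR adjusted p = 0.0141), and the call ended without the HCT (0.103) or HCT116 (0.0699) library of WT. Between the guides ETV1 and ETS2 were 3.11-fold and 1.81-fold higher in KO2. The epithelial factor ELF3 was 1.67-fold lower there (edgeR adjusted p = 0.0218), and not without the HCT library of KO1 (0.225).

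The list of other ERK-induced genes held the most calls. In KO1 2 of 20 rose and 2 fell, where 0.678% of all tested genes rose and 0.347% fell. In KO2 1 rose and 6 fell against WT, where 2.15% and 2.47% of all tested genes did. The gene that rose was LIF (log2 fold change 0.55, edgeR adjusted p = 0.0244). Between the guides 3 were higher in KO2 (EREG, LIF and CXCL8) and 4 lower, where 4.24% and 5.39% of all tested genes were. CXCL8 gave a log2 fold change of 1.76 ± 0.46 there (SE, edgeR adjusted p = 0.0340) and did not pass in KO2 against WT (0.0729). The calls of LIF and CXCL8 were not checked with other settings or with a library left out. Cyclin D1 (CCND1) and the AP-1 subunit gene FOSL2 rose in KO1 and fell in KO2. CCND1 stood at 612 and 482 CPM in WT, 1135 and 995 CPM in KO1 and 401 and 361 CPM in KO2, and FOSL2 at 112 and 37.8, 171 and 77.7, and 50.4 and 25.1 CPM. CCND1 was 2.79-fold, FOSL2 3.25-fold and the receptor gene EPHA2 2.37-fold lower in KO2 than in KO1, with edgeR adjusted p of 5.13e-05, 5.74e-05 and 0.000493. Those 3 calls held without any single library. Against WT in KO1, CCND1 lost its call without the HCT116 library of KO1 (edgeR adjusted p = 0.0601), and FOSL2 without the HCT116 library of WT (0.341) or either library of KO1 (0.138 and 0.180). For KO2 against WT, FOSL2 and EPHA2 lost theirs without the HCT library of WT (edgeR adjusted p = 0.0991 and 0.109), and CCND1 without any WT or KO1 library (0.0912 to 0.355).

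The EGF-family ligand genes AREG and EREG were lower with each guide. WT libraries held AREG at 209 and 140.3 CPM, KO1 at 96.9 and 70.3 CPM and KO2 at 83.7 and 86.7 CPM. EREG stood at 359 and 289.9 CPM in WT, 191 and 136 CPM in KO1 and 259 and 188 CPM in KO2. AREG fell 2.08-fold and 2.01-fold (edgeR adjusted p = 0.00689 and 0.00407). EREG fell 2.00-fold and 1.46-fold (edgeR adjusted p = 0.00192 and 0.0245). The fall of EREG in KO2 lost its call without either library of WT (edgeR adjusted p = 0.0517 and 0.271) and without that of KO1 in the HCT set (0.0683). Both comparisons share the WT libraries. FOSL1, another AP-1 subunit gene, fell 1.79-fold in KO2 (edgeR adjusted p = 0.00374), with 89.7 and 236 CPM in WT and 54.1 and 123 CPM in KO2.

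In the complex of Capicua and its partners, CIC and the partner gene ATXN1L passed in none of the 3 comparisons, and ATXN1 was 2.67-fold higher in KO2 than in KO1 (edgeR adjusted p = 0.00835). ATXN1 stood at 14.3 and 3.40 CPM in KO1 and 25.4 and 16.0 CPM in KO2, with WT at 25.6 and 10.1 CPM. Its difference between the guides kept its direction without any single library. The log2 fold change ranged from 0.98 without the HCT116 library of KO2 to 2.07 without the HCT library of KO1. In the same comparison the epithelial markers KRT8, KRT18, KRT19 and CDH1 were lower in KO2 (4 of 5 tested). Of all tested genes, 5.39% were lower there. Summed levels of the 5 were 8732 and 15011 CPM in KO1, 5248 and 9195 CPM in KO2 and 6330 and 8335 CPM in WT. Against WT, 0 of the 5 passed with either guide, and their median log2 fold change was 0.65 in KO1 and −0.08 in KO2. The part of these markers in the differences between the guides was not tested. KRT8, KRT19 and CDH1 lost their calls without either KO1 library and KRT18 without the HCT116 library of KO1 (edgeR adjusted p = 0.0668 to 0.534). PAX2, the 1 tested gene of 4 listed markers of the HEK293T packaging cells, was 1.63-fold higher in KO2 than in KO1. It stood at 10.9 and 23.7 CPM in WT, 9.52 and 21.5 CPM in KO1 and 18.5 and 29.6 CPM in KO2. Against WT, PAX2 passed with neither guide (edgeR adjusted p = 0.899 in KO1 and 0.132 in KO2). Its call between the guides ended without either KO1 library or the HCT library of KO2, and with DESeq2 (adjusted p = 0.0518). The listed markers NEFL and INA were at 0 in all KO1 and KO2 libraries and reached 0.130 and 0.0787 CPM in WT. The fibroblast list summed to 35.4 to 67.5 CPM and the leukocyte list to 0.787 to 2.24 CPM over all 6 libraries.

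**Figure D4:**
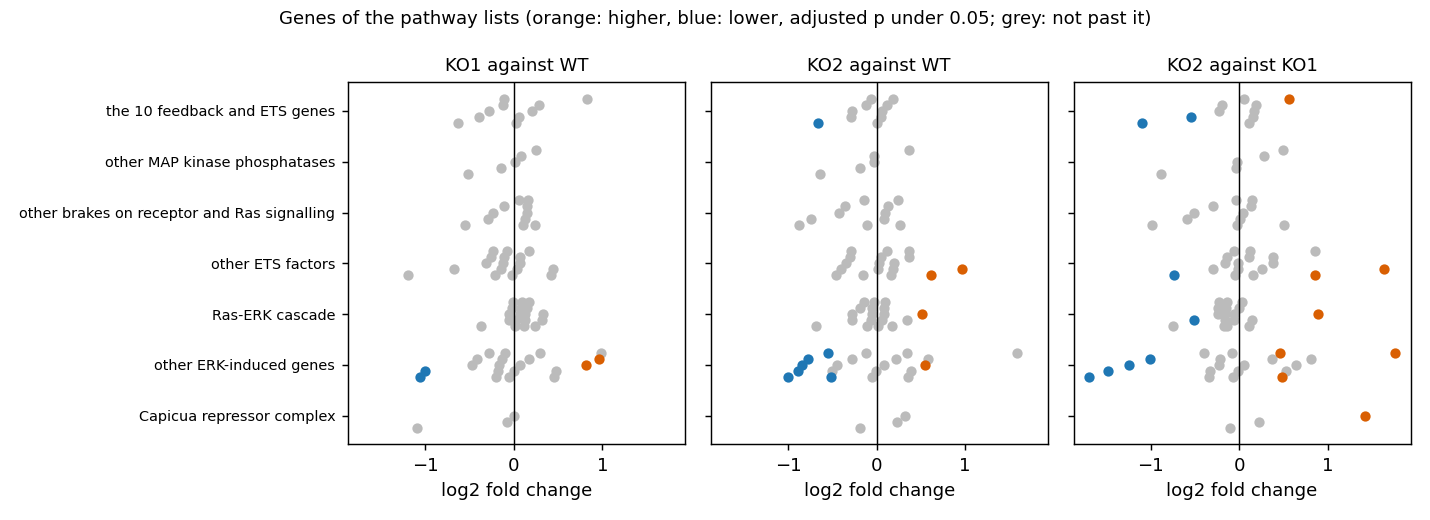
Fitted log2 fold change (horizontal axis) of each tested gene by list, in the 3 comparisons, with vertical offsets only to separate points. Orange points were higher and blue points lower at an adjusted p under 0.05, and grey points did not pass. The list of other ERK-induced genes holds 6 blue points and 1 orange point in KO2 against WT. There the cascade spans −0.68 (GAB1, grey) to 0.51, with 1 orange point, SHC1.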

How the data were processed

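Poly(A) RNA libraries were prepared with a NEBNext Ultra kit, per the labels' protocols. STAR, HTSeq 0.6.0, DESeq2 and hg18 appear in the submitters' processing notes with no role given. The authors deposited, per the file headers, read counts per gene symbol and library. Per the file headers, the authors' tables also hold a log2 fold change and an adjusted p-value per gene. The 40 other columns of values per library were not used.

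Counts were analysed as deposited. The 2 tables were joined on symbol. Another 264 and 429 genes are in 1 table only. Models were fitted in R 4.3.3 by edgeR 4.0.16, with TMM scaling, filterByExpr (minimum count 10), glmQLFit and glmQLFTest. The model had group and name prefix (set), leaving 2 residual degrees of freedom. SE is the log2 fold change over the square root of F. Levels per length divide CPM by the union exon length in GENCODE 29, whose build is not the authors', and serve only to order genes. Ratios within sets have exact (Clopper-Pearson) 95% intervals.

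Column names give group and prefix, not replicate number. The prefix paired libraries: deviations from group means correlated at 0.867 (WT and KO1), 0.815 (WT and KO2) and 0.783 (KO1 and KO2). No group held copies, since chi-square per degree of freedom within groups was 94.7 to 145. The members, lists and model were chosen with earlier results of these data known. Named genes are MUC3A, all 10 members, and up to 3 called genes per list and comparison with the smallest p. A few others, among them LIF, CXCL8 and GAB1, are named outside that rule. Of the listed genes, 13 are not in both tables and were not analysed here. The scripts were tested on simulated counts. Alternatives were DESeq2 1.42.0, limma-voom (limma 3.58.1), other scaling, other filters, no set term, and each library left out.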

Additional observations from a re-analysis of the deposited data

Results flagged for a closer look

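The guides differed from each other for 3 of the 10 genes by edgeR's test with the set term, where 9.62% of all tested genes differed. The log2 difference of KO2 over KO1 was −1.10 for DUSP4, −0.55 for ETV4 and 0.56 for PHLDA1.

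In 6 cases the ratio to WT went opposite ways in the 2 sets, each beyond counting error. Of all tested genes, 10.7% did so in KO2 against WT and 3.4% in KO1 against WT. Counting intervals narrow with more reads and these shares were not matched for reads, so they are not like for like. With 1 library per set and group, these differences between sets were not tested. For KO2 against WT, the log2 ratio in the HCT and HCT116 sets was −0.72 and 0.18 for DUSP4, −0.53 and 0.56 for DUSP5, and −0.28 and 0.49 for DUSP6. It was −0.19 and 0.23 for SPRED1 and −0.26 and 0.12 for PHLDA1. For KO1 against WT it was 0.11 and −0.32 for ETV4.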

How the results depend on the processing

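With no replicate block (no set term), 0 of 10 genes passed in KO2 against WT, as in the comparison of the guides (0), so each of the calls between groups rests on pairing libraries by prefix. That fit turned DUSP5 (−0.058), DUSP6 (−0.016) and SPRED1 (−0.048) in KO2 against WT and DUSP6 (−0.071) in KO2 against KO1. In KO1 against WT the count was 1 with RLE scaling, 1 with limma-voom, 2 without the filter and 2 with DESeq2. All genes called there were 165, 148, 316 and 205, against 130, and without the filter 949 in KO2 against WT, against 585. SPRED1 in KO2 against WT turned with RLE (−0.025), DESeq2 (−0.023), limma-voom (−0.017) and the filter of 1 CPM in all libraries (−0.0038).

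Leaving out 1 library gave 0 to 2 called genes in KO1 against WT, 0 to 4 in KO2 against WT, 1 to 5 in KO2 against KO1 and 6 to 10 between the sets. All genes called then ranged from 69 to 901, 317 to 2170 and 391 to 3202 in the first 3 of these, highest without a KO2 library. A group left with 1 library takes its spread from the other groups, so these counts are not comparable with the fit of all 6 libraries. In that fit 63.9% of all tested genes differed between the sets. Counts from fits with 1 library left out cannot be set against that share. The log2 fold change in KO2 against WT ranged from −0.61 to 0.077 for DUSP4, −0.57 to 0.60 for DUSP5, −0.27 to 0.48 for DUSP6, −0.038 to 0.17 for ETV5 and −0.29 to 0.15 for PHLDA1. It ranged from −0.16 to 0.20 for SPRED1, −0.045 to 0.41 for SPRED2 and −0.38 to 0.13 for SPRY4. In KO1 against WT it ranged from −0.12 to 0.60 for DUSP5, −0.12 to 0.29 for DUSP6, −0.28 to 0.074 for ETV4, −0.16 to 0.18 for SPRED2 and −0.13 to 0.35 for MUC3A. In KO2 against KO1 it ranged from −0.83 to 0.33 for DUSP5, −0.32 to 0.41 for DUSP6, −0.054 to 0.39 for SPRED2, −0.064 to 0.24 for SPRY2 and −0.077 to 0.41 for SPRY4. The cause was not tested.

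The smaller gap between sets in KO2 held for 10 of 10 genes with RLE scaling and with total counts, both chosen after seeing the data.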
